A study of Mus musculus with 5 samples.

Results

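The genes described here are 34 rows of a mouse single-cell count table whose symbols name potassium channel subunits. They are leak (Kcnk), inward rectifier (Kcnj), calcium- or sodium-activated (Kcnn, Kcnma, Kcnmb, Kcnt) and Slo3 (Kcnu) subunits. They were taken by symbol alone from 17271 rows and comprised 13 Kcnj, 10 Kcnk, 4 Kcnn, 1 Kcnma, 3 Kcnmb, 2 Kcnt and 1 Kcnu gene. Each of the 34 had at least 1 unique molecular identifier (UMI, the tag that marks a captured transcript), 8 had fewer than 100, and together they held 116358 UMIs. Other genes of these families were not analysed here. The cells were from lumbar dorsal root ganglia (DRG) of 5 wild-type C57BL/6 mice aged 18 weeks, 3 males and 2 females, all under 1 condition. Cell types, and no treatments, are compared. The ganglia were dissociated with enzymes before droplet capture, and each of the 5 library identifiers carried by the cell names was taken as 1 mouse. No library was assigned to a sex. The authors' annotation put the 3352 cells into 14 types, of which 12 were neuronal.

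Potassium channels set the resting potential and end the action potential of sensory neurons. K2P channels (Kcnk) carry a background leak, with stretch, heat, acid or calcium as the known stimuli of different members. Inward rectifiers (Kcnj) pass current best near or below the potassium equilibrium potential, and in glia they are known for taking up the potassium that active neurons release. Calcium-activated channels (BK from Kcnma1 with Kcnmb subunits, SK and IK from Kcnn) and sodium-activated channels (Kcnt) open after spikes and shape the afterhyperpolarization. In the type names, NF stands for large neurofilament-rich neurons, NP for non-peptidergic and PEP for peptidergic neurons, and Th for neurons with tyrosine hydroxylase, known as low-threshold C mechanoreceptors.

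The libraries held 164 to 1370 cells and 13050389 to 88886975 UMIs, with a median of 52500 to 72840 UMIs per cell. Over the types the median was 16889 UMIs per cell in endothelial cells, 17729 in satellite glia and up to 105150 in NP_Mrgprd, so a share of cells with a UMI rests on unequal depth. The 6 neuron markers summed to 4542 to 10900 counts per 1000000 UMIs (CPM) in the neuron types, against 235 to 776 CPM in the other types. Map2, 1 of the 6, was an exception, with means of 0.349 to 2.001 CPM in the NP types and 0.732 CPM in Th, against 13.7 CPM in satellite glia and 28.8 CPM in endothelial cells. Satellite glia markers summed to 80123 to 103908 CPM in satellite glia, where Apoe alone had a mean of 78916 CPM. They summed to 1527 to 15235 CPM in endothelial cells. Glul, on the same list, went the other way, at 1052 CPM in endothelial cells against 539 CPM in satellite glia. Endothelial markers summed to 5654 to 8528 CPM in endothelial cells. The labels and the summed markers went together, with Map2 and Glul as exceptions. Some sums were small, with as few as 3 cells per library in NF2_Ntrk2.Necab2 and in endothelial cells, 4 in NP_Mrgpra3 and PEP1_Dcn, 6 in NF_Pvalb and 9 in PEP3_Trpm8. A barcode was shared between libraries in 7 cases (14 cells), and 188 cells had over 10% mitochondrial UMIs.

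A level is given below as CPM of the UMIs summed over the cells of a type in a library, with the mean ± SD over the 5 libraries. Because the assay counts the 3′ ends of transcripts, levels are compared between types for 1 gene and not between genes. A gene was called higher in a type when the edgeR quasi-likelihood test against the summed other cells of the same libraries gave a Benjamini-Hochberg adjusted p under 0.01 over all genes tested, the change was at least 2-fold, and at least 25% of the type's cells had a UMI. It was called lower by the same p and fold when at least 25% of the other cells had a UMI. Fold changes are on the log2 scale, ± SE, n = 5 libraries. The authors defined the types from these same counts, so a test between types measures the size of a difference and gives no evidence apart from the annotation. A gene that passed the filter on low counts through the type where it is high had to differ, so the counts below describe the tested genes only.

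Of 319 tested pairs of gene and type, 54 were called higher and 110 lower, beside 7.74% and 10.98% of all pairs tested. The type was above the other cells in 5 of 5 libraries in 53 of the 54, and below them in 109 of the 110. In the sum of other cells NP_Mrgprd weighed most, since it gave 92245664 of the 224553219 UMIs. When every type was instead set against the unweighted mean of the other 13 types, 97 of 336 pairs were higher (11.9% of all pairs) and 42 lower (7.39%), so that higher calls made up 69.8% and not 32.9% of all calls. This fit took the mean over log levels, so types near 0 pull it down and higher calls come more easily. How much of the shift came from the log scale and how much from the equal weights was not tested. That fit tested 24 of the genes. It kept 53 of the 54 higher calls, the other being Kcnt2 in PEP2_Htr3a.Sema5a, which did not pass its filter on low counts. Of the 110 lower calls 42 stayed lower, 48 were not called, and 18 could not be tested because a gene at 0 UMIs in some type left a standard error over 5 log2 units, which was so in 70 pairs of 13 genes. Kcnmb1 turned from lower to higher against this log mean in PEP1_Dcn and PEP1_Slc7a3.Sstr2. The higher calls are given in detail below, and a lower call is given with its standing against the unweighted mean. As higher calls come more easily in that fit, the 53 that it kept give them no further weight. Since types near 0 lower that log mean, a lower call that did not stay lower there is not refuted by it. The highest mean was in a neuron type for 26 genes, in satellite glia for 4 and in endothelial cells for 4, and for 70.6%, 13.1% and 16.3% of all genes in the same order. In 13 of the 34 genes the 5 libraries of the highest type did not overlap those of the second type, as in 15.1% of all genes with a UMI.

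**Figure D1:**
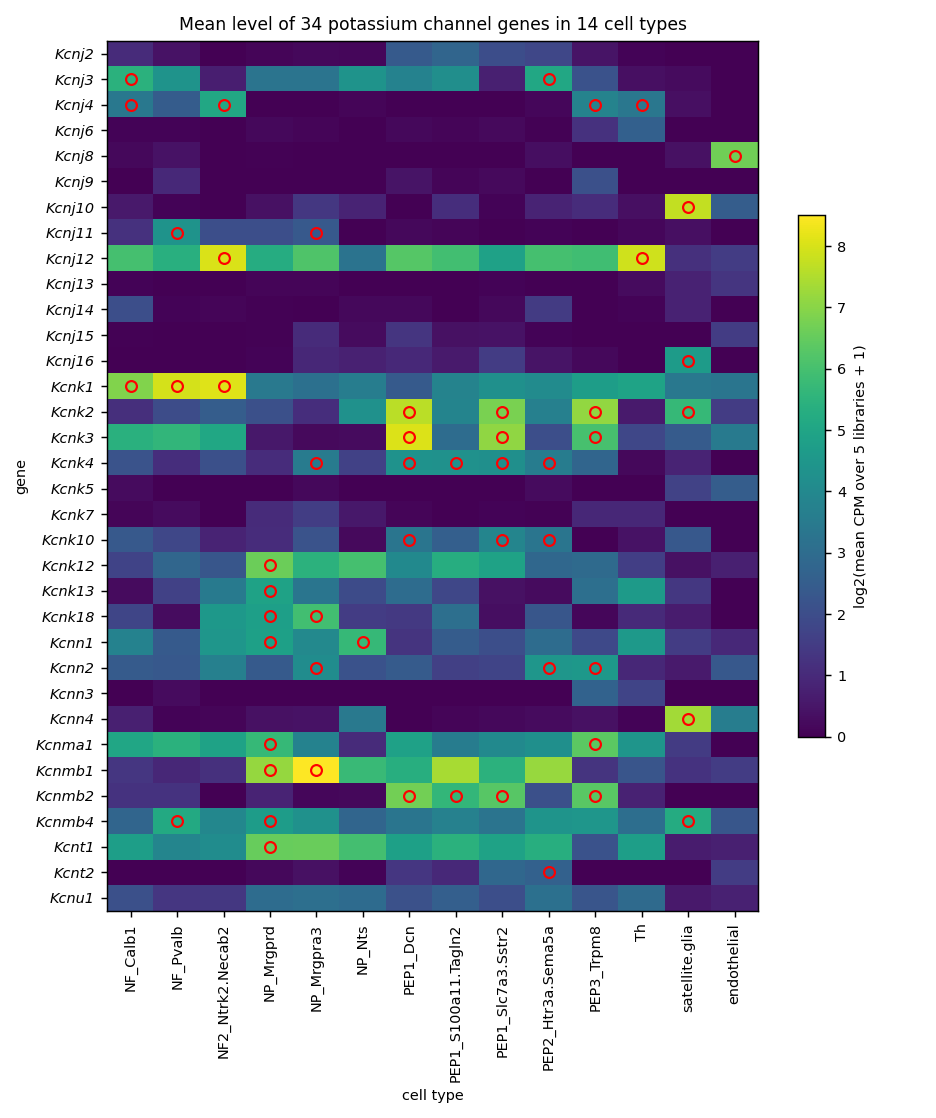
Mean level of the 34 channel genes (rows) in the 14 cell types (columns), as log2(mean CPM over 5 libraries + 1), with red circles on the 54 pairs called higher. Kcnk1 was brightest in the 3 NF types, Kcnk2, Kcnk3 and Kcnmb2 in PEP types, Kcnk12 and Kcnmb1 in NP types, Kcnj10 and Kcnn4 in satellite glia and Kcnj8 in the endothelial type.

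The promoters of 4 genes are printed below because their highest levels lay in different cells: Kcnj10 in satellite glia, Kcnj8 in the endothelial type, and Kcnk12 and Kcnk18 in NP neurons. Each is the 250 bases before the annotated start (RefSeq, GRCm38.p6, the same assembly as mm10), 5′ to 3′ on the strand of the gene. Capitals mark a GC box (GGGCGG or its reverse complement CCGCCC) or a CCAAT box (CCAAT or ATTGG).

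Kcnj10 (chr1:172340960-172341209, + strand): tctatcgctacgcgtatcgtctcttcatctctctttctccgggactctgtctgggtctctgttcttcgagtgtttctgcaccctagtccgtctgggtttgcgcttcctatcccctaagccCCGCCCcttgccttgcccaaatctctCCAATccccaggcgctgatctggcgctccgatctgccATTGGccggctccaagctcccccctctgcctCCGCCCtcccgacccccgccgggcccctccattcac

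Kcnj8 (chr6:142571615-142571864, - strand): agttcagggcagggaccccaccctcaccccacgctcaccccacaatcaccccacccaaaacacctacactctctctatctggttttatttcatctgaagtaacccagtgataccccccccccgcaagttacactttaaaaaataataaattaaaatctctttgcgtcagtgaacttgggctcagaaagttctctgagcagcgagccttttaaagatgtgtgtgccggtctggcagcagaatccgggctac

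Kcnk12 (chr17:87797995-87798244, - strand): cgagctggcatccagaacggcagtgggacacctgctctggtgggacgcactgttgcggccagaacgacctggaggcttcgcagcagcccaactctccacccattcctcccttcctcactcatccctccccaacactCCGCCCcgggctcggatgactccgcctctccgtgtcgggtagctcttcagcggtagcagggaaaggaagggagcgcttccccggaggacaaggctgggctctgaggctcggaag

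Kcnk18 (chr19:59219398-59219647, + strand): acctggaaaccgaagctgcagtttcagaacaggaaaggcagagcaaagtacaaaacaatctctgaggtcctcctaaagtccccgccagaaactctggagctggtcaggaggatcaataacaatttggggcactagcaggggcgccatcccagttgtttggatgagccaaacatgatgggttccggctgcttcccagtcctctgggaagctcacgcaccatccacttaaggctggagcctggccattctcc

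The Kcnj10 window held 2 GC boxes and 2 CCAAT boxes, the Kcnk12 window held 1 GC box, and the Kcnj8 and Kcnk18 windows held neither motif. GC content was 62.0% for Kcnj10, 49.2% for Kcnj8, 64.8% for Kcnk12 and 53.6% for Kcnk18. Of 32851 RefSeq windows of the same length, 32.7% held a GC box and 33.8% a CCAAT box, on either strand. A RUNX motif (TGTGGT or ACCACA, in 14.05% of all windows) and a SOX motif (ACAAAG or CTTTGT, in 16.5%) were in none of the 4 windows. Entries were found for 28 of the 34 genes, with 37 windows, of which 4 held the RUNX and 5 the SOX letters. These are matches of letters and not sites of binding. The gene positions given below are also those of RefSeq on GRCm38.p6.

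Among the K2P leak channels, Kcnk1 was high in the large neurofilament neurons, Kcnk2 and Kcnk3 were high in the same 3 peptidergic types, and Kcnk12, Kcnk13 and Kcnk18 had their highest means in NP types, Kcnk13 being high in Th and Kcnk18 in NF2_Ntrk2.Necab2 as well. Kcnk4 and Kcnk10 were higher in peptidergic types as well. Kcnk5 and Kcnk7 reached at most 4.75 and 1.89 CPM in a type.

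Kcnk1 (chr8:125993655-126030685, + strand) encodes TWIK-1, a weak inward leak channel. In NF2_Ntrk2.Necab2 its level was 305, 259, 227, 294 and 272 CPM in libraries 1 to 5, and in NF_Pvalb it was 199, 283, 223, 244 and 301 CPM. Both types were high in all 5 libraries and overlapped each other, and NF_Calb1 at 117 ± 22.4 CPM lay below both. Against the other cells the log2 fold change was 3.25 ± 0.13 (adjusted p = 4.5e-11) in NF2_Ntrk2.Necab2, 3.18 ± 0.14 (adjusted p = 1.0e-10) in NF_Pvalb and 1.94 ± 0.13 (adjusted p = 1.5e-08) in NF_Calb1. The next type was Th with 29.5 ± 5.47 CPM, and the lowest was PEP1_Dcn with 4.37 ± 2.58 CPM. Kcnk1 was called lower in 8 types, of which 6 stayed lower against the unweighted mean of the types, the 3 NP types, PEP1_Dcn, satellite glia and endothelial cells.

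Kcnk2 (chr1:189207930-189402782, - strand) encodes TREK-1, a channel opened by stretch, warmth and lipids. It read 229, 166, 194, 187 and 203 CPM in PEP1_Dcn. PEP3_Trpm8, the type named for the cold sensor Trpm8, followed with 139 ± 22.3 CPM and PEP1_Slc7a3.Sstr2 with 110.2 ± 15.7 CPM. The PEP1_Dcn libraries were all above those of PEP3_Trpm8, while the libraries of PEP3_Trpm8 and PEP1_Slc7a3.Sstr2 overlapped. The log2 fold change against the other cells was 3.48 ± 0.14 (adjusted p = 1.0e-09) in PEP1_Dcn, 2.78 ± 0.14 (adjusted p = 1.2e-09) in PEP3_Trpm8 and 2.60 ± 0.14 (adjusted p = 1.2e-09) in PEP1_Slc7a3.Sstr2. The remaining PEP types stood far below, with 13.3 ± 2.74 CPM in PEP1_S100a11.Tagln2 and less in PEP2_Htr3a.Sema5a. Satellite glia were called higher too, at 51.1 ± 3.95 CPM and a log2 fold change of 1.27 ± 0.14 (adjusted p = 4.0e-07). Kcnk2 was lower in 8 types, of which 5 stayed lower against the unweighted mean, among them Th at 0.515 ± 0.628 CPM.

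Kcnk3 (chr5:30588170-30625270, + strand) encodes TASK-1, a leak channel closed by acid. Its level in PEP1_Dcn was 305, 314, 244, 227 and 229.7 CPM, in PEP1_Slc7a3.Sstr2 149, 186, 114, 122 and 103 CPM and in PEP3_Trpm8 57.1, 49.9, 68.3, 66.3 and 80.96 CPM. No library of PEP1_Dcn overlapped PEP1_Slc7a3.Sstr2, and none of PEP1_Slc7a3.Sstr2 overlapped PEP3_Trpm8. On the log2 scale the difference was 3.93 ± 0.17 (adjusted p = 1.0e-09), 2.77 ± 0.20 (adjusted p = 2.3e-08) and 1.39 ± 0.19 (adjusted p = 2.9e-05) in the same order. The 3 NF types held 32.5 to 47.3 CPM, overlapped PEP3_Trpm8 at the upper end, and were called higher against the unweighted mean but not against the summed other cells. The 3 NP types were nearly empty, at 0.151 CPM in NP_Mrgpra3, 0.189 in NP_Nts and 0.462 in NP_Mrgprd, and were called lower with either choice of comparison cells. The other PEP types were low for Kcnk3, with 7.04 ± 3.61 CPM in PEP1_S100a11.Tagln2 and 3.11 ± 2.77 CPM in PEP2_Htr3a.Sema5a.

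The other stretch-gated members are Kcnk4 (TRAAK) and Kcnk10 (TREK-2). Kcnk4 was called higher in 5 types. Its 3 highest, PEP1_Dcn with 19.4 ± 3.07 CPM, PEP1_S100a11.Tagln2 with 19.00 ± 5.8 and PEP1_Slc7a3.Sstr2 with 17.9 ± 5.42, overlapped, and the log2 fold changes were 2.09 ± 0.18, 2.01 ± 0.22 and 1.99 ± 0.21. In NP_Mrgpra3 Kcnk4 was above the other cells in 4 of 5 libraries (log2 fold change 1.36 ± 0.23, adjusted p = 2.6e-04). Kcnk10 was highest in PEP1_Slc7a3.Sstr2 with 13.8 ± 4.35 CPM (log2 fold change 2.31 ± 0.28, adjusted p = 7.4e-06), and was higher in PEP1_Dcn and PEP2_Htr3a.Sema5a as well, with overlapping libraries.

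Kcnk12 (chr17:87745821-87797994, - strand) and Kcnk13 (chr12:99963149-100062682, + strand) encode THIK-2 and THIK-1, halothane-inhibited leak channels. In NP_Mrgprd Kcnk12 was at 106, 88.8, 97.8, 89.7 and 92.2 CPM. NP_Nts, at 63.00 ± 5.54 CPM, and NP_Mrgpra3, at 43.6 ± 8.51 CPM, followed, and every NP_Mrgprd library was above every NP_Nts library. The log2 fold change in NP_Mrgprd was 2.43 ± 0.16 (adjusted p = 1.4e-08). NP_Nts and NP_Mrgpra3, whose comparison cells include NP_Mrgprd, were not called higher against the summed other cells, and both were against the unweighted mean of the types. Kcnk12 was lower in 9 types, of which 5 stayed lower against that mean, including NF_Calb1 at 2.27 ± 0.562 CPM and Th at 1.98 ± 2.18 CPM.

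Kcnk13 read 30.9, 24.9, 30.2, 31.4 and 28.2 CPM in NP_Mrgprd and 24.1, 18.5, 32.8, 18.9 and 25.7 CPM in Th. The libraries of the 2 types overlapped. By edgeR the log2 fold change was 2.70 ± 0.12 (adjusted p = 3.7e-10) in NP_Mrgprd, while Th was called higher only against the unweighted mean. In contrast to Kcnk12, NP_Nts held little Kcnk13, at 2.87 ± 1.38 CPM. Kcnk13 was lower in 9 types, of which 0 stayed lower and 3 could not be tested against the unweighted mean. Endothelial cells had 0 Kcnk13 UMIs, which lowers that log mean, so the mean cannot decide these calls.

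Kcnk18 (chr19:59219648-59237370, + strand) encodes TRESK, a leak channel opened by calcium through calcineurin and known from trigeminal and DRG neurons. Its level in NP_Mrgpra3, a type named for an itch receptor, was 90.1, 57.6, 56.9, 45.4 and 50.3 CPM, in NP_Mrgprd 34.3, 24.01, 29.4, 23.95 and 24.04 CPM and in NF2_Ntrk2.Necab2 14.3, 16.2, 30.9, 22.4 and 28.4 CPM. Library 1 of NP_Mrgpra3, which held 4 cells, was the highest, and all 5 libraries lay above those of NP_Mrgprd. NP_Mrgprd and NF2_Ntrk2.Necab2 overlapped. Against the other cells the log2 fold change came to 2.36 ± 0.16 (adjusted p = 3.7e-08) in NP_Mrgpra3, with 2.28 to 2.44 when each library was left out in turn, and 2.23 ± 0.13 (adjusted p = 5.7e-09) in NP_Mrgprd. NP_Nts held 1.86 ± 0.301 CPM and PEP3_Trpm8 0.111 ± 0.247 CPM. Kcnk18 was lower in 10 types, of which 0 stayed lower and 5 could not be tested against the unweighted mean. The gene had 0 UMIs in endothelial cells, which lowers that log mean, so the mean cannot decide these calls.

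**Figure D2:**
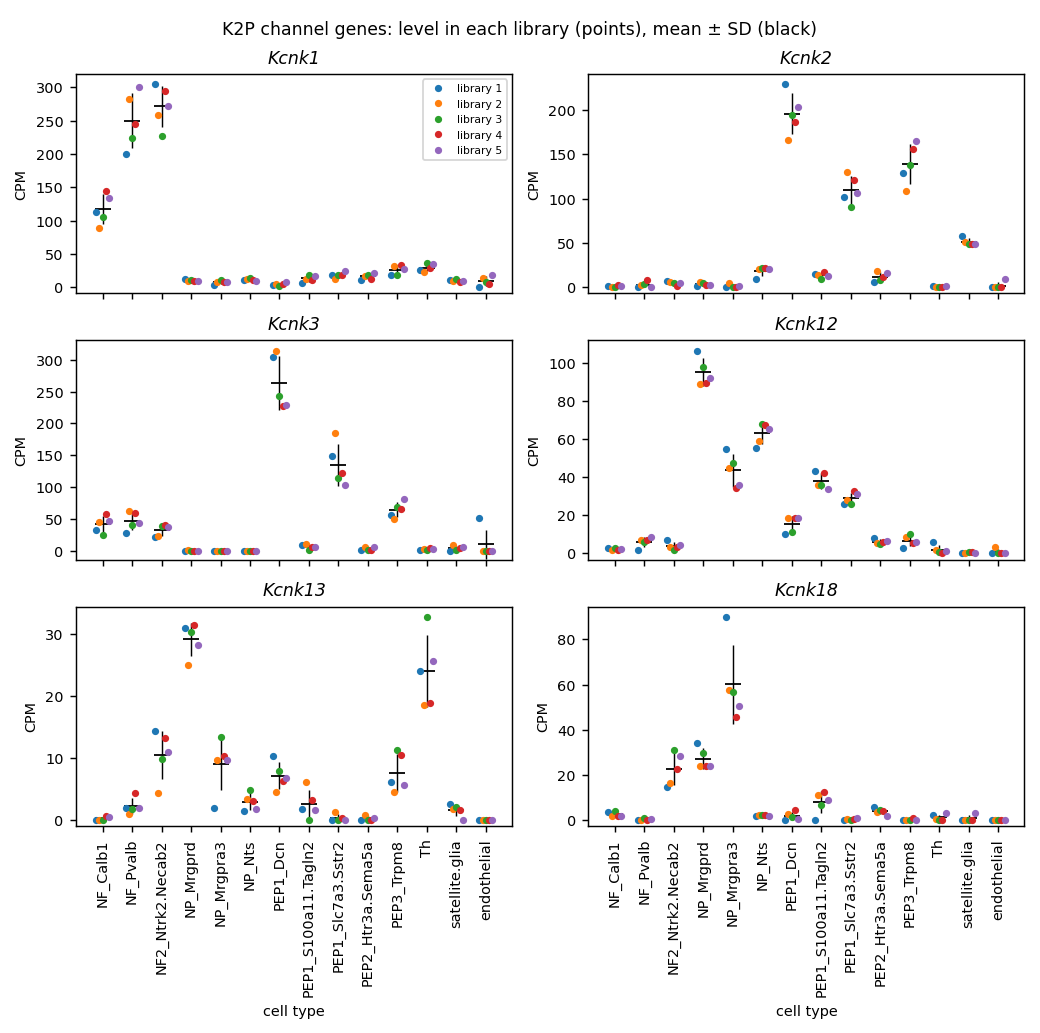
Level (CPM) of 6 K2P genes in each of the 14 types, with 1 coloured point per library, the mean as a black dash and the SD over 5 libraries as a line. Kcnk1 stands out in the 3 NF types, Kcnk2 and Kcnk3 in PEP1_Dcn, PEP1_Slc7a3.Sstr2 and PEP3_Trpm8, Kcnk12 in the NP types, Kcnk13 in NP_Mrgprd and Th, and Kcnk18 in NP_Mrgpra3, NP_Mrgprd and NF2_Ntrk2.Necab2.

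Among the inward rectifiers, Kcnj12 and Kcnj4 shared NF2_Ntrk2.Necab2 and Th as high types, Kcnj3 was high in NF_Calb1 and PEP2_Htr3a.Sema5a, and Kcnj11 was high in NF_Pvalb. Kcnj10 and Kcnj16 were high in satellite glia and Kcnj8 in the endothelial type. The remaining 6 genes reached at most 5.88 CPM.

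Kcnj12 (chr11:61022564-61073269, + strand) encodes Kir2.2, a strong classical inward rectifier. In NF2_Ntrk2.Necab2 its level was 122, 202, 365, 319 and 302 CPM and in Th 211, 231, 215, 278 and 245 CPM. Library 1 of NF2_Ntrk2.Necab2, with 3 cells, was the lowest there, and the types overlapped. This was a log2 fold change of 2.32 ± 0.21 (adjusted p = 2.3e-07) in NF2_Ntrk2.Necab2 and 2.35 ± 0.10 (adjusted p = 2.6e-10) in Th. PEP1_Dcn followed with 75.3 ± 11.5 CPM, and NP_Nts was the lowest neuron type with 8.45 ± 2.32 CPM (log2 fold change -3.01 ± 0.13, adjusted p = 2.5e-10). Satellite glia and endothelial cells held 1.29 and 1.85 CPM. Kcnj12 was lower in 4 types, of which 3 stayed lower against the unweighted mean.

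Kcnj4 (chr15:79480226-79512511, - strand) encodes Kir2.3, another strong inward rectifier. It was at 46.6, 33.6, 32.5, 27.7 and 27.2 CPM in NF2_Ntrk2.Necab2, with every library above those of the other types. PEP3_Trpm8 held 12.9 ± 8.15 CPM, NF_Calb1 9.69 ± 3.91 and Th 9.25 ± 2.31, and these 3 overlapped. In the edgeR fit the log2 fold change was 4.11 ± 0.23 (adjusted p = 1.1e-09) in NF2_Ntrk2.Necab2, 2.29 ± 0.30 (adjusted p = 1.5e-05) in PEP3_Trpm8, 2.20 ± 0.23 (adjusted p = 1.6e-06) in Th and 2.03 ± 0.30 (adjusted p = 3.0e-05) in NF_Calb1. The other 2 genes of the family were sparse: Kcnj2 (Kir2.1) was highest in PEP1_S100a11.Tagln2 with 5.88 ± 1.27 CPM and Kcnj14 (Kir2.4) in NF_Calb1 with 3.11 ± 3.89 CPM.

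The G-protein-gated channels, which opioid and GABA-B receptors are known to open, include Kcnj3 (GIRK1), Kcnj6 and Kcnj9. Kcnj3 was at 32.95, 42.2, 36.4, 51.1 and 47.5 CPM in NF_Calb1 and 21.04, 21.6, 30.7, 49.7 and 43.98 CPM in PEP2_Htr3a.Sema5a, with overlapping libraries. On the log2 scale the difference was 1.85 ± 0.16 (adjusted p = 1.4e-07) and 1.52 ± 0.20 (adjusted p = 2.3e-05). The gene was near 0 in NF2_Ntrk2.Necab2 (0.648 ± 0.893 CPM), PEP1_Slc7a3.Sstr2 (0.68 ± 0.496) and Th (0.267 ± 0.366), each called lower against the summed other cells and not testable against the unweighted mean. Its partner Kcnj6 (GIRK2) had 90 UMIs in all and was highest in Th with 5.09 ± 1.5 CPM. Kcnj9 (GIRK3) had 41 UMIs and was highest in PEP3_Trpm8 with 3.18 ± 3.21 CPM.

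Kcnj11 (chr7:46097123-46100952, - strand) encodes Kir6.2, the pore of ATP-sensitive channels that close when ATP is high. It was at 15.3, 20.7, 17.6, 25.5 and 19.2 CPM in NF_Pvalb. No library of another type reached this range, the second type being NP_Mrgpra3 at 4.14 ± 0.34 CPM. By edgeR the log2 fold change was 3.65 ± 0.20 (adjusted p = 9.3e-10) in NF_Pvalb and 1.18 ± 0.23 (adjusted p = 9.1e-04) in NP_Mrgpra3. Abcc8, which encodes the SUR1 subunit that Kir6.2 needs, was also highest in NF_Pvalb, at 11.1 ± 1.70 CPM against 1.95 ± 0.613 in the other cells, with a log2 fold change of 2.52 ± 0.25 (adjusted p = 4.3e-07). Abcc8 was higher in NF_Calb1 too (log2 fold change 1.04 ± 0.26, adjusted p = 0.0028), where Kcnj11 stood at 1.33 ± 1.31 CPM.

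Kcnj10 (chr1:172341210-172374085, + strand) encodes Kir4.1, the main potassium channel known from satellite glia. Its level in satellite glia was 202, 252, 146, 237 and 217 CPM in libraries 1 to 5, and in the neuron types its mean was 0 to 1.61 CPM. The 5 libraries of satellite glia were all far above every other sum. Against the other cells the log2 fold change came to 9.04 ± 0.32 (adjusted p = 1.9e-13). Kcnj16 (Kir5.1), which pairs with Kir4.1, was at 24.5 ± 10.7 CPM in satellite glia with a log2 fold change of 6.22 ± 0.32 (adjusted p = 1.7e-11), and at 1.83 ± 1.19 CPM in the second type, PEP1_Slc7a3.Sstr2. Satellite glia also held Schwann cell markers summing to 1119 to 2079 CPM, with 0 of 5 genes at 0, and their part in these results was not tested. Endothelial cells held 4.71 ± 8.61 CPM of Kcnj10, 7 UMIs in 3 of 56 cells, where satellite glia markers summed to 1527 to 15235 CPM with 1 of 6 genes at 0. Kcnj10 is itself on that marker list.

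Kcnj8 (chr6:142564837-142571614, - strand) encodes Kir6.1, the pore of vascular ATP-sensitive channels and known as a pericyte and smooth muscle gene. In the endothelial type it was at 309, 33.1, 55.4, 54.6 and 55.4 CPM in libraries 1 to 5. Library 1, with 3 cells, was far above the rest, and all 5 were above every other type, whose means were at most 0.322 CPM. This was a log2 fold change of 9.88 ± 0.55 (adjusted p = 8.9e-11) with all libraries and 9.36 without library 1, and the mean fell to 49.6 CPM without it. Markers of pericytes and smooth muscle were present in the same sums, at 532, 182, 170, 124 and 166 CPM in libraries 1 to 5 for 8 genes together, with Rgs5 at 113 ± 82.8 CPM, Pdgfrb at 36.95 ± 38.3 CPM and Cspg4 at 0. These genes were not confined to that type. Rgs5 was higher in Th, at 178 ± 55.6 CPM, and stood at 96.8 CPM in NP_Mrgpra3 and 82.5 CPM in NF2_Ntrk2.Necab2. The 8 genes summed to 114 to 253 CPM in Th, which overlaps the endothelial sums. Pdgfrb was also at 13.1 ± 2.49 CPM in NP_Mrgprd. A comparison by cell was added after these values were seen. A UMI of Kcnj8 was found in 17 of the 56 endothelial cells, and 17 of these 17 also had a UMI of the pericyte list, against 6 of the 39 cells with no Kcnj8 UMI. The pericyte list summed to 497 CPM in the cells with Kcnj8 and 43.4 CPM in those without, while the endothelial list summed to 6257 and 7098 CPM, at median depths of 17091 and 16867 UMIs. Whether Kcnj8 came from endothelial cells or from pericytes under that label was not tested. Among NP_Mrgprd neurons, which are deeper, 3 of 900 cells had a Kcnj8 UMI. Abcc9, whose SUR2 protein pairs with Kir6.1, was highest in the endothelial type as well, at 8.93 ± 14.5 CPM.

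**Figure D3:**
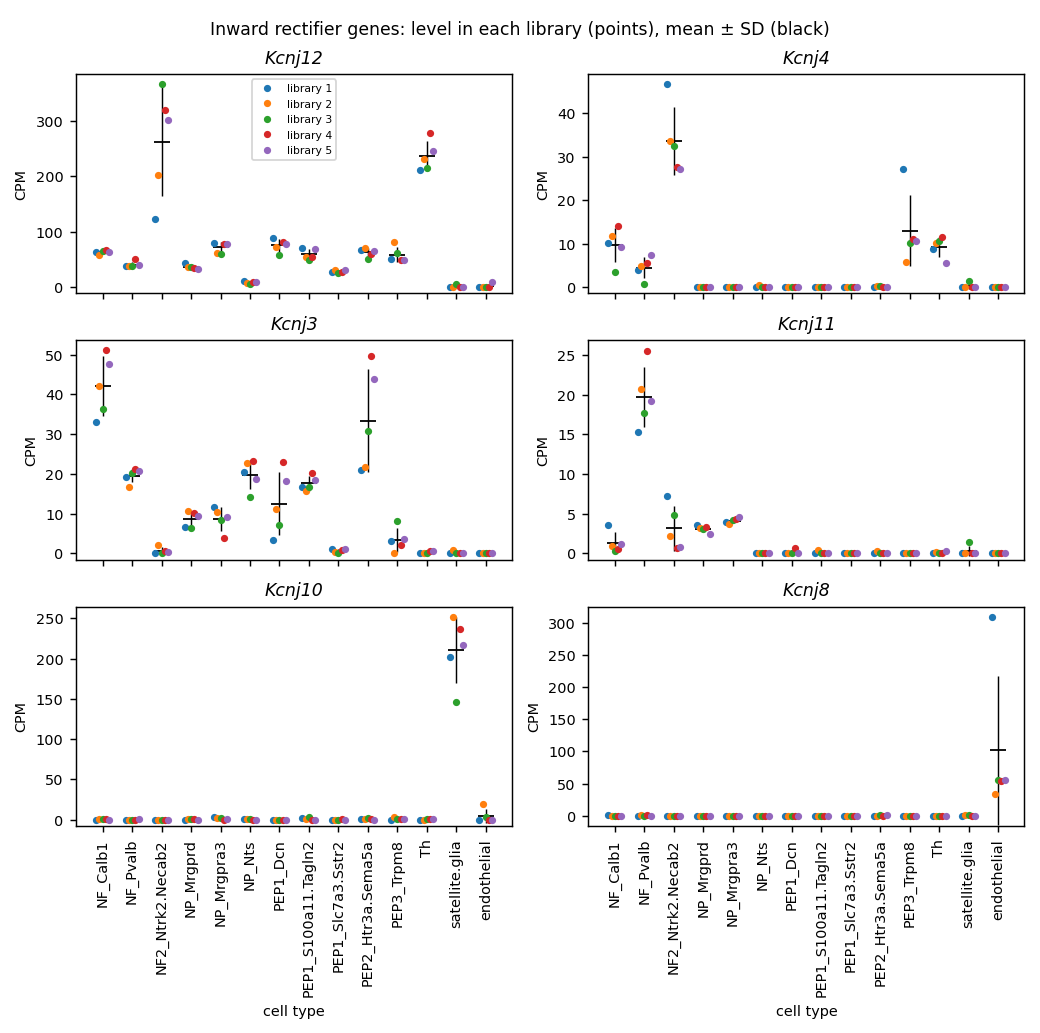
Level (CPM) of 6 inward rectifier genes in each of the 14 types, with 1 coloured point per library, the mean as a black dash and the SD over 5 libraries as a line. Kcnj12 and Kcnj4 peak in NF2_Ntrk2.Necab2, Kcnj3 in NF_Calb1 and PEP2_Htr3a.Sema5a, Kcnj11 in NF_Pvalb, Kcnj10 in satellite glia and Kcnj8 in the endothelial type, where library 1 stands at 309 CPM.

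Of the BK channel genes, the pore Kcnma1 and the beta subunits had different high types. Kcnma1 was highest in PEP3_Trpm8, Kcnmb1 in NP_Mrgpra3, Kcnmb2 in PEP1_Dcn and Kcnmb4 in satellite glia and NF_Pvalb. Against the summed other cells, PEP3_Trpm8 was the type where both Kcnma1 and Kcnmb2 were called higher, and NP_Mrgprd that where Kcnma1, Kcnmb1 and Kcnmb4 were. Against the unweighted mean PEP1_Dcn had both Kcnma1 and Kcnmb2 higher as well, with log2 fold changes of 1.52 and 6.40.

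Kcnma1 (chr14:23292288-24005110, - strand) read 105, 74.8, 74.4, 70.2 and 80.96 CPM in PEP3_Trpm8 and 55.01, 51.5, 60.7, 41.2 and 46.5 CPM in NP_Mrgprd. The libraries of PEP3_Trpm8 were all above those of NP_Mrgprd, and NF_Pvalb followed with 42.7 ± 9.79 CPM. In the edgeR fit the log2 fold change was 1.39 ± 0.12 (adjusted p = 2.8e-07) in PEP3_Trpm8 and 1.53 ± 0.12 (adjusted p = 9.1e-08) in NP_Mrgprd. NP_Nts stood apart from the other neurons with 2.92, 0.949, 0.882, 0 and 0.555 CPM, 11 UMIs in 400 cells, and a log2 fold change of -6.05 ± 0.33 (adjusted p = 2.2e-09). Kcnma1 was lower in 6 types, of which 1 stayed lower and 2 could not be tested against the unweighted mean. In the endothelial type, which stayed lower, it had 0 UMIs, which is at least 10.1-fold lower than in the other cells when 3 UMIs over the type are taken as the limit.

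Kcnmb1 (chr11:33962955-33973641, + strand) encodes the beta1 subunit, which raises the calcium sensitivity of BK and is best known from smooth muscle. In NP_Mrgpra3 it was at 284, 235, 307, 523 and 471 CPM. PEP1_S100a11.Tagln2 held 167 ± 34.7 CPM, PEP2_Htr3a.Sema5a 144 ± 32.3 and NP_Mrgprd 142 ± 15.02, and these 3 overlapped below NP_Mrgpra3. On the log2 scale the difference was 2.29 ± 0.22 (adjusted p = 1.1e-06) in NP_Mrgpra3 and 1.22 ± 0.18 (adjusted p = 3.4e-05) in NP_Mrgprd. In NP_Mrgpra3, where Kcnmb1 was higher, Kcnma1 was lower (log2 fold change -1.28 ± 0.14, adjusted p = 5.4e-06) against the summed other cells and was not called against the unweighted mean. The NF types held 0.925 to 1.52 CPM and PEP3_Trpm8 1.44 ± 1.43 CPM, all called lower with either choice of comparison cells. PEP1_Dcn at 39.6 ± 19.1 CPM and PEP1_Slc7a3.Sstr2 at 43.1 ± 13.5 CPM are the types that turned, from log2 fold changes of -1.44 ± 0.27 and -1.21 ± 0.20 to 1.56 and 1.84 against the unweighted mean. That mean is of log levels and is lowered by the types near 0, such as the NF types.

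Kcnmb2 (chr3:31901861-32200180, + strand) encodes the beta2 subunit, known for giving BK a fast inactivation. Its level was 137, 64.1, 109, 120.3 and 89.3 CPM in PEP1_Dcn, 75.1, 95.3, 70.4, 86.8 and 66.7 CPM in PEP3_Trpm8 and 112, 67.98, 66.3, 70.3 and 70.1 CPM in PEP1_Slc7a3.Sstr2. The libraries of the 3 types overlapped. PEP1_S100a11.Tagln2 was also called higher, at 48.3 ± 11.3 CPM. By edgeR the log2 fold change was 3.32 ± 0.21 (adjusted p = 2.6e-08) in PEP1_Dcn, 2.78 ± 0.14 (adjusted p = 9.3e-10) in PEP3_Trpm8, 3.03 ± 0.15 (adjusted p = 4.5e-10) in PEP1_Slc7a3.Sstr2 and 2.08 ± 0.15 (adjusted p = 1.8e-07) in PEP1_S100a11.Tagln2. The PEP2 type held 3.19 ± 1.78 CPM and every NF and NP type at most 1.38 CPM. In satellite glia Kcnmb2 had 0 UMIs, at least 21.2-fold below the other cells by the limit of 3 UMIs.

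Kcnmb4, the beta4 subunit of neuronal BK channels, was broader. It was at 37.1 ± 3.41 CPM in satellite glia (log2 fold change 1.27 ± 0.16, adjusted p = 2.3e-06), 34.6 ± 7.25 CPM in NF_Pvalb (log2 fold change 1.04 ± 0.16, adjusted p = 5.0e-05) and 24.99 ± 4.03 CPM in NP_Mrgprd (log2 fold change 1.14 ± 0.13, adjusted p = 3.2e-06), and satellite glia and NF_Pvalb overlapped. The matrix also has a row for Kcnmb4os2, named as its opposite-strand gene. Whether the counting used strand is not stated in the sources used here, and any mixing of reads between the pair was not tested.

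The small- and intermediate-conductance genes split between neurons and glia. Kcnn1 (SK1, chr8:70843158-70865691, - strand) was at 54.1, 44.6, 50.7, 57.3 and 50.9 CPM in NP_Nts, with every library above those of the second type, NP_Mrgprd at 27.6 ± 1.25 CPM. Against the other cells the log2 fold change came to 1.58 ± 0.11 (adjusted p = 3.9e-08) in NP_Nts and 1.04 ± 0.13 (adjusted p = 1.0e-05) in NP_Mrgprd. It was lower in 8 types, of which 4 stayed lower against the unweighted mean, among them PEP1_Dcn at 1.44 ± 1.35 CPM. NP_Nts had the highest Kcnn1 and the lowest Kcnma1 among the neuron types. Kcnn2 (SK2) was called higher in PEP3_Trpm8 (22.1 ± 4.95 CPM), PEP2_Htr3a.Sema5a (21.03 ± 8.53) and NP_Mrgpra3 (16.6 ± 5.24), with overlapping libraries and log2 fold changes of 1.87 ± 0.20, 1.98 ± 0.22 and 1.80 ± 0.23. Kcnn3 (SK3) had 52 UMIs and was highest in PEP3_Trpm8 with 5.38 ± 5.56 CPM, followed by Th with 2.35 ± 0.914.

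Kcnn4 (chr7:24369826-24385212, + strand) encodes IK (KCa3.1), best known from blood cells, microglia and epithelia. In satellite glia it was at 121, 144, 134, 217 and 182 CPM. Every satellite glia library was above every other sum, and the log2 fold change was 7.23 ± 0.21 (adjusted p = 3.1e-14). Among neurons NP_Nts stood out with 16.1, 2.37, 11.03, 9.67 and 9.99 CPM, 201 UMIs in 400 cells, while the other 11 neuron types had means of 0 to 0.67 CPM. NP_Nts was not called higher against the summed other cells and was against the unweighted mean, with a log2 fold change of 4.26. Satellite glia markers summed to 170 to 526 CPM in NP_Nts, within their range of 81.1 to 1464 CPM over all neuron types, and Kcnj10 was at 0.797 CPM there. Macrophage markers summed to 16.6 to 55.5 CPM in satellite glia with 2 of 4 genes at 0, and their part in the Kcnn4 level was not tested.

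Kcnt1 (chr2:25863791-25918273, + strand) encodes Slack, a sodium-activated potassium channel known from DRG neurons. In NP_Mrgpra3 it was at 99.8, 109, 63.6, 99.6 and 91.8 CPM and in NP_Mrgprd at 89.1, 108, 89.5, 85.7 and 81.9 CPM. The types overlapped, and NP_Nts followed with 61.4 ± 6.39 CPM. This was a log2 fold change of 1.58 ± 0.11 (adjusted p = 1.9e-08) in NP_Mrgprd, and NP_Mrgpra3, at 0.93 ± 0.14, was just under the 2-fold limit. PEP3_Trpm8 was the lowest neuron type with 3.38 ± 2.08 CPM (log2 fold change -4.01 ± 0.28, adjusted p = 2.6e-08). Kcnt1 was lower in 8 types, of which 3 stayed lower against the unweighted mean.

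Kcnt2 (chr1:140245657-140614045, + strand), the related Slick, was sparse, with 211 UMIs. It was at 2.43, 6.11, 5.17, 6.13 and 6.57 CPM in PEP2_Htr3a.Sema5a and 6.78, 4.55, 11.9, 3.44 and 3.9 CPM in PEP1_Slc7a3.Sstr2. The types overlapped. In the edgeR fit the log2 fold change was 3.21 ± 0.28 (adjusted p = 5.4e-07) in PEP2_Htr3a.Sema5a, while PEP1_Slc7a3.Sstr2, at 2.96 ± 0.37 (adjusted p = 9.9e-06), had a UMI in 16.4% of its cells and so missed the limit of 25%. The NF types had 0 Kcnt2 UMIs. Kcnu1, known from sperm, was found in 27.6% of all cells at 0.495 to 7.78 CPM over the types. Its 3 highest types overlapped, and no type was called higher against the summed other cells. Against the unweighted mean NP_Mrgpra3, NP_Mrgprd, PEP2_Htr3a.Sema5a and NP_Nts were, with log2 fold changes of 1.01 to 1.22. Among the genes of under 100 UMIs not yet named, Kcnk5 (24 UMIs), Kcnj13 (14) and Kcnj15 (44) had their highest means in endothelial cells at 4.75, 1.48 and 1.85 CPM, where the limit of 3 UMIs is 3.19 CPM. Kcnk7 had 156 UMIs and was at most 1.89 CPM.

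**Figure D4:**
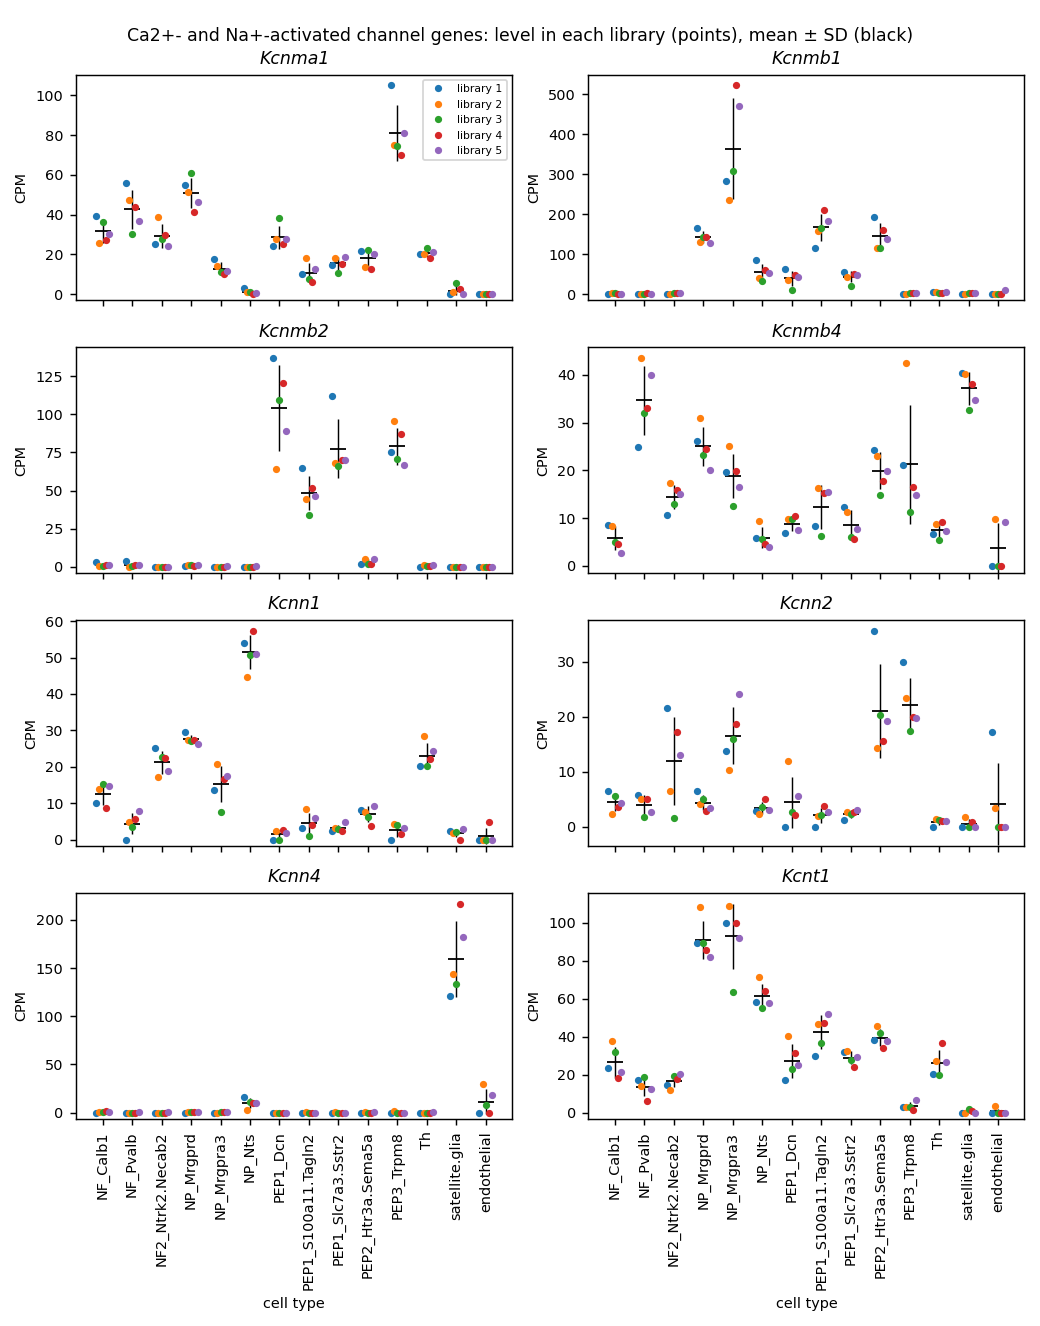
Level (CPM) of 8 genes of calcium- and sodium-activated channels in each of the 14 types, with 1 coloured point per library, the mean as a black dash and the SD over 5 libraries as a line. Kcnma1 peaks in PEP3_Trpm8 and is near 0 in NP_Nts, Kcnmb1 peaks in NP_Mrgpra3, Kcnmb2 in PEP1_Dcn, PEP3_Trpm8 and PEP1_Slc7a3.Sstr2, Kcnn1 in NP_Nts, Kcnn4 in satellite glia and Kcnt1 in the NP types.

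By type, the 3 NF types shared Kcnk1 as a higher gene. In NF_Calb1, 3 of 22 tested genes were higher (13.4% of all genes tested) and 8 were lower (10.6%). Its 3 higher genes were Kcnk1, Kcnj3 and Kcnj4. In NF_Pvalb, where they were Kcnk1, Kcnj11 and Kcnmb4, 3 of 21 tested genes were higher (12.4% of all genes tested) and 9 were lower (12.3%). NF2_Ntrk2.Necab2 had Kcnk1, Kcnj4 and Kcnj12, and there 3 of 21 tested genes were higher (7.71% of all genes tested) and 6 were lower (8.96%). Of the 24 genes tested against the unweighted mean, 6 were higher (17.3%) and 4 lower (6.03%) in NF_Calb1. In that fit 6 were higher (16.01%) and 2 lower (8.34%) in NF_Pvalb, and 9 were higher (12.2%) and 2 lower (6.39%) in NF2_Ntrk2.Necab2. Kcnk3 and Kcnma1 were among the added higher genes in all 3. In NF_Calb1 and NF_Pvalb the share of higher channel genes against the summed other cells was near that of all genes.

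The NP neurons differed among themselves, and their counts depended on the comparison cells. In NP_Mrgprd, 8 of 26 tested genes were higher (4.72% of all genes tested) and 5 were lower (8.76%), the most higher genes of a type against the summed other cells. They were Kcnk12, Kcnk13, Kcnk18, Kcnma1, Kcnmb1, Kcnmb4, Kcnn1 and Kcnt1. NP_Mrgpra3, the itch-receptor type, had Kcnk18, Kcnmb1, Kcnk4, Kcnj11 and Kcnn2, and 5 of 22 tested genes were higher (2.96% of all genes tested) and 5 were lower (6.04%). In NP_Nts, with Kcnn1 alone, 1 of 23 tested genes were higher (4.88% of all genes tested) and 8 were lower (9.72%). With the unweighted mean as comparison, 10 were higher (10.1%) and 3 lower (6.50%) in NP_Mrgprd. The counts for NP_Mrgpra3 were the highest of a type in that fit, where 13 were higher (9.07%) and 3 lower (4.58%), Kcnk12, Kcnk13, Kcnj12, Kcnj3, Kcnk10, Kcnn1, Kcnt1 and Kcnu1 being added. In NP_Nts 8 were higher (9.70%) and 4 lower (6.55%), and Kcnk12, Kcnk2, Kcnj3, Kcnmb1, Kcnn4, Kcnt1 and Kcnu1 joined Kcnn1.

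Among the peptidergic types, PEP1_Dcn and PEP1_Slc7a3.Sstr2 shared their 5 higher genes, Kcnk2, Kcnk3, Kcnk4, Kcnk10 and Kcnmb2. In PEP1_Dcn, 5 of 22 tested genes were higher (5.48% of all genes tested) and 6 were lower (4.91%). For PEP1_Slc7a3.Sstr2, 5 of 24 tested genes were higher (4.98% of all genes tested) and 9 were lower (6.77%). PEP1_S100a11.Tagln2 had Kcnk4 and Kcnmb2 of these, and 2 of 23 tested genes were higher (3.28% of all genes tested) and 5 were lower (4.28%). PEP2_Htr3a.Sema5a had Kcnj3, Kcnk4, Kcnk10, Kcnn2 and Kcnt2, and 5 of 24 tested genes were higher (7.64% of all genes tested) and 8 were lower (5.97%). PEP3_Trpm8 had Kcnk2, Kcnk3, Kcnmb2, Kcnma1, Kcnn2 and Kcnj4, and 6 of 23 tested genes were higher (5.32% of all genes tested) and 6 were lower (7.77%). Set against the unweighted mean, 9 were higher (10.2%) and 2 lower (1.87%) in PEP1_Dcn, and 7 were higher (8.33%) and 1 lower (3.11%) in PEP1_Slc7a3.Sstr2. In PEP1_S100a11.Tagln2 6 were higher (7.90%) and 0 lower (1.73%) in that fit, and in PEP2_Htr3a.Sema5a 7 were higher (13.6%) and 1 lower (2.47%). The 6 higher genes of PEP3_Trpm8 were the same in both fits, since 6 were higher (7.99%) and 3 lower (4.46%).

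In Th neurons, whose 2 higher genes were Kcnj12 and Kcnj4, 2 of 22 tested genes were higher (5.93% of all genes tested) and 9 were lower (7.26%). For satellite glia, with Kcnj10, Kcnj16, Kcnn4, Kcnk2 and Kcnmb4, 5 of 23 tested genes were higher (14.8% of all genes tested) and 13 were lower (27.5%). The endothelial type had Kcnj8, found in cells that also held pericyte markers, and 1 of 23 tested genes were higher (15.2% of all genes tested) and 13 were lower (33.1%). By the unweighted mean 4 were higher (10.8%) and 4 lower (5.03%) in Th, Kcnk13 and Kcnn1 being added. For satellite glia 5 were higher (17.1%) and 7 lower (18.8%) by that measure, with the same 5 higher genes, and for endothelial cells 1 were higher (16.1%) and 6 lower (27.6%). The median log2 fold change of the tested channel genes lay between -2.92 in Th and -0.12 in NP_Mrgpra3 when genes at 0 were set to their limit, beside medians between -0.83 and 0.01 over all genes tested in each type. The medians over all genes used the fitted values with no such limit. With fitted values only the endothelial median of the channel genes changed, from -2.09 to -5.69, beside -0.83 over all genes there.

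All 22 channel genes tested among the 12 neuron types differed between types, as did 94.3% of all genes tested, so this share is near the background. To compare the classes, UMIs were summed over the NF, NP and PEP types of each library, Th being left out, and 22 channel genes were tested. These calls used the limits on p and fold alone, with no minimum share of cells, so genes of low level could be called. The sums weigh types by their UMIs. NP_Mrgprd gave 74.9% of the UMIs of the NP class, NF_Calb1 52.7% of NF and PEP2_Htr3a.Sema5a 30.7% of PEP, so an NP value is mostly that of NP_Mrgprd. As an alternative chosen after seeing the data, each class was also taken as the unweighted mean of its types, with 24 channel genes tested. That mean was taken over log levels, so a type near 0 lowers its class strongly. In 8 gene contrasts of 6 genes a type at 0 UMIs left that alternative without a usable error.

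From NP to NF, 8 channel genes were higher (22.1% of all genes tested) and 8 lower (16.4%). The higher genes included Kcnj4, at 8.34 ± 0.49 (adjusted p = 9.5e-12), Kcnk3, at 6.37 ± 0.31 (adjusted p = 4.6e-13), and Kcnk1, at 4.01 ± 0.15 (adjusted p = 1.6e-14). The others were Kcnj3, Kcnj11, Kcnj12, Kcnk10 and Kcnj2, the last at 0.711 CPM in NF and above NP in 4 of 5 libraries. Kcnj4 was at 12.4 CPM in NF and 0.0205 ± 0.0222 CPM in NP, so the size of its fold rests on few UMIs in NP. Lower genes were led by Kcnmb1, at -6.79 ± 0.22 (adjusted p = 1.1e-15), and Kcnk12, at -4.65 ± 0.14 (adjusted p = 8.8e-16), with Kcnk2, Kcnk13, Kcnk18, Kcnn1, Kcnt1 and Kcnu1. Kcnma1 differed by -0.39 ± 0.11 (adjusted p = 0.0047), under the 2-fold limit, with 51.0 CPM in NP_Mrgprd but 12.8 in NP_Mrgpra3 and 1.06 in NP_Nts. With classes as unweighted log means, 6 genes were higher (18.1% of all genes tested) and 9 lower (14.5%). Kcnma1 was higher there at 2.13 ± 0.16, a difference of log means in which NP_Nts, at 1.06 CPM, lowers the NP value. Kcnn4 was added as lower, Kcnj3 and Kcnk10 were no longer called and Kcnj2 was not tested. The median over the channel genes was -0.19, beside 0.01 over all genes.

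From PEP to NF, 4 were higher (11.3%) and 9 lower (12.6%). Kcnj11 at 6.62 ± 0.42 (adjusted p = 9.1e-11), Kcnk1 at 3.55 ± 0.15 (adjusted p = 3.9e-13), Kcnj4 and Kcnn1 were higher. Kcnj11 was at 6.42 CPM in NF and 0.0490 ± 0.0729 CPM in PEP, so the size of its fold rests on few UMIs in PEP. Kcnmb1 at -5.95 ± 0.22 (adjusted p = 6.7e-14), Kcnmb2 at -5.77 ± 0.26 (adjusted p = 8.2e-13) and Kcnk2 at -5.15 ± 0.24 (adjusted p = 1.5e-12) were lower, as were Kcnj2, Kcnk3, Kcnk4, Kcnk10 and Kcnk12. Kcnt2, with 0 UMIs in NF, was at least 32.9-fold lower than in PEP by the limit of 3 UMIs over the class. As unweighted means 4 were higher (11.3%), the same genes, and 6 lower (12.9%), Kcnk3 and Kcnk10 being lost, Kcnj2 and Kcnt2 not tested and Kcnj16 added. The median was -0.70, beside -0.00 over all genes.

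From NP to PEP, 8 were higher (16.9%) and 6 lower (7.68%). Kcnk3 at 7.39 ± 0.30 (adjusted p = 1.4e-13), Kcnmb2 at 6.04 ± 0.22 (adjusted p = 3.9e-14) and Kcnk2 at 3.49 ± 0.19 (adjusted p = 4.6e-12) were higher, with Kcnj2, Kcnj4, Kcnk4, Kcnk10 and Kcnt2. Among the PEP types Kcnj4 was at 12.9 CPM in PEP3_Trpm8, 0.116 CPM in PEP2_Htr3a.Sema5a and 0 in the 3 PEP1 types. Kcnj11 at -5.52 ± 0.44 (adjusted p = 1.7e-09), Kcnk13 at -3.36 ± 0.23 (adjusted p = 1.6e-10) and Kcnk18 at -3.22 ± 0.19 (adjusted p = 2.4e-11) were lower, with Kcnk12, Kcnn1 and Kcnt1. The Kcnj11 level was 2.68 CPM in NP and 0.0490 CPM in PEP, so here too its fold rests on few UMIs in PEP. As unweighted log means 5 were higher (13.6%), namely Kcnk2, Kcnk3, Kcnk4, Kcnmb2 and Kcnma1, and 7 lower (5.57%), with Kcnmb1 and Kcnn4 added. For Kcnma1 the NP log mean there is lowered by NP_Nts, at 1.06 CPM. Kcnj4, Kcnj11 and Kcnk10 could not be tested there for want of a usable error, and Kcnj2 and Kcnt2 did not pass its filter on low counts. The median was 0.44, beside 0.04 over all genes. The 3 contrasts share their classes, so they are not independent of each other.

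**Figure D5:**
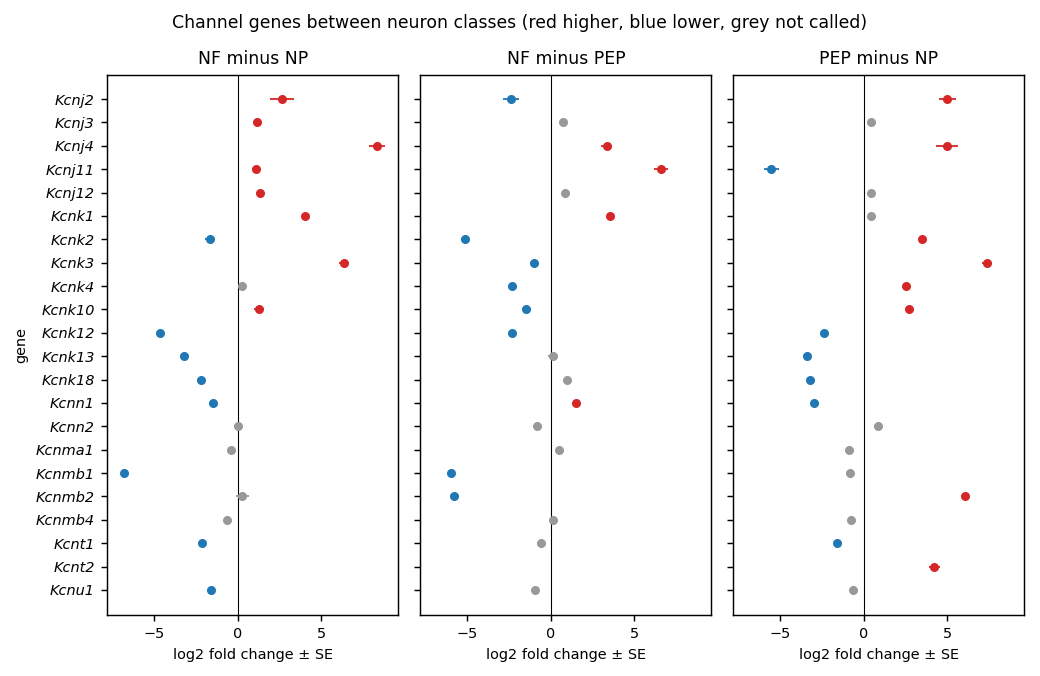
Log2 fold change ± SE (n = 5 libraries) of the tested channel genes between summed NF, NP and PEP neurons, red for higher, blue for lower and grey for not called. Kcnt2, at 0 UMIs in NF, is left out of the NF panels. Kcnk3 and Kcnj4 lie far to the right for NF against NP, and Kcnmb1 and Kcnmb2 far to the left for NF against PEP. The Kcnj4 level in NP was 0.0205 CPM, so the size of that fold rests on few UMIs.

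Of 18 partner genes of these channels, 17 were analysed and 14 tested, giving 11 pairs higher and 21 lower of 159, beside 7.74% and 10.98% of all pairs tested. Both shares of partner pairs were near those of all pairs. The higher pairs fell to Unc80, Fam155a, Nalcn, Calm3 and Abcc8. Nalcn, the pore of a sodium leak channel that opposes potassium leak, was higher in NF_Pvalb (log2 fold change 1.21 ± 0.16, adjusted p = 1.1e-05) and PEP1_Dcn (log2 fold change 1.21 ± 0.12, adjusted p = 2.0e-06). Its subunit gene Unc80 was at 397 ± 42.9 CPM in NF_Pvalb (log2 fold change 3.35 ± 0.20, adjusted p = 2.5e-09) and 219 ± 22.5 CPM in NF_Calb1 (log2 fold change 2.51 ± 0.12, adjusted p = 5.6e-10), against 0.426 ± 0.572 CPM in NP_Nts. Fam155a, another subunit gene, was higher in the 3 NF types and PEP2_Htr3a.Sema5a, with 2.78 ± 0.14 (adjusted p = 5.5e-10) in NF_Pvalb. Calm3, 1 of the 3 calmodulin genes that make SK and IK channels sense calcium, was higher in NF_Pvalb (log2 fold change 1.25 ± 0.11, adjusted p = 1.3e-07). Of the receptors that open GIRK channels, Gabbr1 was lower in satellite glia and endothelial cells, and no receptor gene was called higher in a single type. Between classes Oprm1, the mu opioid receptor gene, was lower in NF than in NP (-2.83 ± 0.54) and PEP neurons (-4.00 ± 0.50). Its level was low in every class, at 0.200 CPM in NF, 1.33 CPM in NP and 3.55 CPM in PEP.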

How the data were processed

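Single-cell libraries (10x Genomics, 3′ chemistry) were measured. The authors aligned the reads to mm10 with a UCSC gene model in Cell Ranger, kept cells by gene number and mitochondrial share, and deposited the raw UMI counts per gene and cell with a type name per cell from Seurat clustering. No removal of doublets is named in the methods and none was run here. Rows naming no mouse gene (4 rows, 143 UMIs, 6.37e-05% of all) were left out.

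UMIs were summed per library and type, giving 5 sums per type. edgeR 4.0.16 in R 4.3.3 (filterByExpr, TMM, quasi-likelihood test, no library block) compared each type with the summed other cells, with Benjamini-Hochberg adjustment over all genes tested. A further fit took all 70 sums and set each type against the unweighted mean of the other 13, taken over log levels. The class contrasts used 15 sums and no minimum share of cells. Classes as unweighted means of the log levels of their types were an alternative added after seeing the data. Scripts were tested on simulated data. DESeq2 1.42.0, other filters, thinning to 10000 UMIs per cell and leaving out each library were alternatives. Limits for genes at 0 rest on 3 UMIs and cover counting error only.

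Sums of one library come from the same mouse by design, and their deviations from the type means correlated at -0.008 to 0.409 between types. The p-values measure the spread between these 5 libraries. Values in every library were printed for genes with a mean of at least 50 CPM in their highest type, the leading higher gene of each type, and the highest gene of each subfamily. The genes, lists and tests were chosen with earlier results of these data known. The split of endothelial cells by Kcnj8 was added after values were seen.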

Additional observations from a re-analysis of the deposited data

Results flagged for a closer look

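Among 18 levels over 5 libraries, each for a named channel gene in its highest type, 2 had a library far from the others by Dixon's test (critical value 0.71 for 5 samples). Chance flags about 1 in 20 groups. Kcnj8 in the endothelial type was at 308.9 CPM in library 1, a sum of 3 cells, against 33.1 to 55.4 CPM in libraries 2 to 5. The mean of those 4 was 49.6 ± 11.04 CPM, and the gene remained above every other type without library 1. Kcnk18 in NP_Mrgpra3 was at 90.06 CPM in library 1, a sum of 4 cells, against 45.4 to 57.6 CPM in the others, whose mean was 52.6 ± 5.78 CPM. The part of the small number of cells in these values was not tested.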

How the results depend on the processing

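In 1 fit over the 70 sums, each type was set against the unweighted mean of the others, taken over log levels. There 97 pairs of gene and type were higher and 42 lower, in place of 54 and 110, and 63 of 308 pairs tested in both had the opposite sign. After thinning each cell to 10000 UMIs, 32 pairs were higher and 25 lower, of which 30 and 25 were among the main calls, 14 genes differed among neuron types, 5 were higher in NF than NP and 5 in PEP than NP. Thinning also lowers the share of cells with a UMI, which the call requires. With no minimum share, 63 pairs were higher and 157 lower. Leaving out each library in turn gave 52 to 55 higher and 108 to 112 lower pairs, 20 to 23 genes that differed among neuron types, 6 to 8 higher and 8 to 9 lower in NF than NP, 4 to 6 higher and 8 to 10 lower in NF than PEP, and 8 higher and 6 to 7 lower in PEP than NP. With the library as a replicate block, which pairs the sums of a mouse, 55 pairs were higher and 113 lower, and no count moved by more than 1.5 times. DESeq2 gave 53 and 114. With each class as the unweighted log mean of its types, an alternative chosen after seeing the data, 5 genes were higher in PEP than NP in place of 8. The log2 fold changes of the named genes in their leading types, 329 values under the alternatives, each kept its direction and its side of the limit on the adjusted p, while Kcnt1 in NP_Mrgpra3 moved from 0.93 to 2.60 against the unweighted mean and to 1.23 after thinning, both above the 2-fold limit. Kcnj4 in NF2_Ntrk2.Necab2 was at 41.5 CPM as a mean over cells and 33.5 CPM as a sum. Depth limits the low genes: 3 UMIs correspond to 3.19 CPM in the endothelial type.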
